A study of Mus musculus with 15 samples.

Results

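The interleukin 1 (IL-1) system was described in mouse acute myeloid leukemia whose RAS oncogene had been switched off. Its 10 genes were Il1b, Il1bos, Il1a, Il18, Il1rn, Il1r1, Il1r2, Il1rap, Il1rl1 and Casp1. They were chosen on their levels in these same arrays, at 0 h of RAS-ON and at each RAS-OFF time, so their levels and changes are given as a description, with estimates and standard errors (SE) and no test. Every probe set that carried exactly 1 of these symbols in the platform annotation was kept, which gave 16 probe sets for 9 of the 10 genes, among 45101 probe sets and 18193 named genes on the array. No probe set carried the symbol Il1rl1, the receptor for interleukin 33, and it was not analysed here.

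The RAS-OFF groups held 10 arrays, 2 for each of 5 times of doxycycline treatment (48, 60, 72, 84 and 96 h). The RAS-ON group held 5 arrays of vehicle-treated leukemia at 0 h. Both groups shared the NRASG12V/Mll-AF9 genotype, the host and the tissue: leukemia cells were injected through the tail vein of SCID/Beige mice, a strain that lacks B and T cells and has poor natural killer cell function, and after 20 days, at white blood cell counts above 100000 per microlitre, cells were taken from the leukemic spleens. Doxycycline, which abolishes NRASG12V expression in this model, was given into the peritoneum at 0 h and then in the drinking water until sacrifice. The series holds no vehicle-treated arrays at the later times. Loss of NRASG12V, doxycycline itself and the added time therefore cannot be told apart in any change between the groups. The promoter that drives NRASG12V and whether the leukemia derives from 1 clone are not stated in the labels. The labels do not say that each replicate came from its own mouse, so every error below measures the spread between these arrays, which may in part be technical.

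IL-1 signalling is a first step of inflammation. The ligands IL-1alpha and IL-1beta bind the receptor IL1R1, which recruits the accessory chain IL1RAP and passes the signal through MyD88 and IRAK kinases to NF-kB. IL-1beta and interleukin 18 are made as inactive precursors that caspase-1, activated in inflammasomes, cleaves. The brakes built into the system are the receptor antagonist encoded by Il1rn, the decoy receptor IL1R2 and the processing step itself. Monocytes, macrophages and neutrophils are the usual myeloid sources of IL-1beta.

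Il1bos is a long non-coding RNA gene on the opposite strand of Il1b, and the pair is shown here because they were the members with the largest rises. In RefSeq on assembly GRCm38.p6, Il1b is annotated at chr2:129364569-129371164 on the minus strand and Il1bos at chr2:129369902-129375733 on the plus strand. They share 1263 bases, chr2:129369902-129371164. The 250 bases before each start, as the RefSeq promoter table places it, are printed 5′ to 3′ on the strand of the gene, chr2:129371140-129371389 for Il1b and chr2:129369652-129369901 for Il1bos. Each window lies inside the annotated span of the other gene. Capitals mark matches to the 5 motifs searched.
Il1b: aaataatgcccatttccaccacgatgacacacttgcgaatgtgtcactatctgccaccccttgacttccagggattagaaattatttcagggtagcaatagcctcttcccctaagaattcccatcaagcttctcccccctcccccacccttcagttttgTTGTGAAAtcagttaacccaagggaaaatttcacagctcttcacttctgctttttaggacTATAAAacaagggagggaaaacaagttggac
Il1bos: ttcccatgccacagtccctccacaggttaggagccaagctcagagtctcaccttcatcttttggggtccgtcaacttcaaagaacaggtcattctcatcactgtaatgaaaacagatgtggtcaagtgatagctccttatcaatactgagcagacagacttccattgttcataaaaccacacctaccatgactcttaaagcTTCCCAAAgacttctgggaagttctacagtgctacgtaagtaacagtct
The motifs were searched on both strands, and matches of different motifs were allowed to overlap. The Il1b window held a TATA box (TATAAA) at positions -31 to -26 before the start and a C/EBP motif (TTNNGNAA) at -91 to -84. The Il1bos window held a C/EBP match on its minus strand at -49 to -42 and none of the other 4 motifs. Among the upstream windows of 32851 genes, 12.4% held the TATA box and 36.8% the C/EBP motif. AP-1 (TGANTCA), the PU.1 core (GAGGAA) and a 10-letter NF-kB motif had no match in either of the printed windows and were found in 6.75%, 23.3% and 45.8% of all windows. Over the 10 listed genes, 3 windows held the TATA box, 6 the C/EBP motif, 2 the AP-1 motif, 2 the PU.1 core and 4 the NF-kB motif.

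Levels are log2 of the deposited array intensity. Probe sets are ranked by brightness and set against the array median, but no level is read as more RNA of one gene than of another. Median intensities of the 15 arrays ran from 149.99 to 156.53. Replicates 1 to 3 and 4 to 5 of RAS-ON were taken as 2 sets, a split that no label gives. The SD of log2 differences was 0.186 to 0.286 within the first, 0.178 within the second and 0.247 to 0.344 between the sets. These ranges overlap: replicate 1 gave 0.286 with replicate 3, and 0.258 and 0.247 with replicates 4 and 5. Replicate 1 of RAS-OFF 96 h had a Gapdh 3′ minus 5′ difference of 1.22 on the log2 scale, against 0.10 to 0.35 on the other arrays. The leukocyte and myeloid markers Ptprc, Mpo, Itgam and Cd33 lay above the array median on all 15 arrays. They are not particular to leukemia, so they do not check that label. Mpo averaged 12.59 in RAS-OFF and 13.90 in RAS-ON. The 3 probe sets of the mouse gene Nras fell by 0.25 ± 0.06, 0.28 ± 0.07 and 0.31 ± 0.09 in RAS-OFF (SE, limma adjusted p = 0.00526, 0.00483 and 0.0113), the brightest with means of 10.62 ± 0.17 in RAS-OFF (SD, n = 10) and 10.94 ± 0.18 in RAS-ON (SD, n = 5). Whether any of them reads the NRASG12V transcript is not given in the annotation used here, so these values do not check the switch.

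Il1b, which encodes IL-1beta, was higher in every RAS-OFF array than in any RAS-ON array. It read 9.88 and 9.65 at 48 h, 9.72 and 9.56 at 60 h, 9.38 and 9.47 at 72 h, 9.32 and 9.60 at 84 h, and 9.37 and 9.16 at 96 h, against 8.13, 8.43, 8.55, 7.82 and 7.85 on the RAS-ON arrays. The means were 9.51 ± 0.21 in RAS-OFF (SD, n = 10) and 8.16 ± 0.33 in RAS-ON (SD, n = 5), a 2.55-fold higher level or a change of 1.35 ± 0.12 on the log2 scale (SE). The level was highest at 48 h, and by mean the order was 48, 60, 84, 72 and 96 h. Neighbours in that order overlapped except 72 h and 96 h, and except 96 h and RAS-ON. At 48, 60, 72, 84 and 96 h the change over RAS-ON was 1.61, 1.48, 1.27, 1.30 and 1.11, and the slope within RAS-OFF was -0.12 ± 0.05 per 12 h (SE). The 2 RAS-ON sets differed for this gene: the mean was 8.37 on replicates 1 to 3 and 7.84 on replicates 4 and 5, and the change was 1.14 against the first set and 1.67 against the second.

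Il1bos was among the probe sets with the largest rises on the array, and its level had no slope over the RAS-OFF times beyond its SE. The RAS-OFF arrays read 8.66 and 8.32 at 48 h, 8.70 and 8.70 at 60 h, 8.54 and 8.17 at 72 h, 8.43 and 9.09 at 84 h, and 8.45 and 8.72 at 96 h, against 4.57, 4.98, 4.49, 4.54 and 4.97 on the RAS-ON arrays. All RAS-OFF arrays lay far above all RAS-ON arrays. The mean was 8.58 ± 0.26 in RAS-OFF (SD, n = 10) and 4.71 ± 0.24 in RAS-ON (SD, n = 5), a change of 3.87 ± 0.12 (SE) or 14.6-fold. By mean the order was 84, 60, 96, 48 and 72 h and then RAS-ON, and the only neighbours that did not overlap were 72 h and RAS-ON. The slope within RAS-OFF was 0.03 ± 0.05 per 12 h, and it lay between -0.01 and 0.06 when any 1 array was left out. In RAS-OFF 71.2% of probe sets were dimmer than Il1bos, and in RAS-ON 9.25% were. The RAS-ON level is thus near the bottom of the array, where the deposited values carry no detection call, so the size of the fold and its rank depend on that level. Its rise ranked 2 of the 45037 probe sets that are not controls, and with 16 added to every intensity before taking log2 the change was 3.24, or 9.42-fold, and ranked 4. Amplification from the poly(A) tail keeps the strand of an RNA, but the strand and position of the 2 probe sets are not given in the annotation used here, so how far each reads the shared stretch was not tested.

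**Figure D1:**
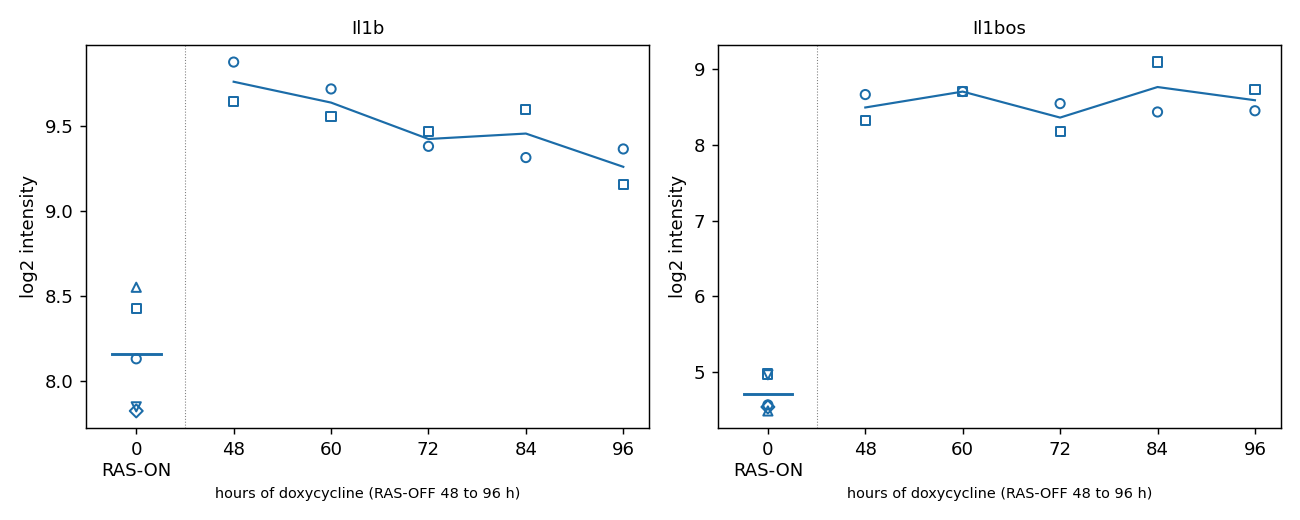
Log2 intensity of Il1b (left) and Il1bos (right) against hours of doxycycline, with 5 RAS-ON arrays at 0 h (bar: mean) and 2 RAS-OFF arrays at each later time (line: means). Symbols stand for replicate numbers, and the vertical axes do not start at 0 and differ in range. All RAS-OFF arrays lie above all RAS-ON arrays, and the Il1b mean is highest at 48 h and lowest at 96 h, while the Il1bos means have a slope of 0.03 per 12 h.

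These are RNA levels of cells from leukemic spleens, so more cells of a kind and more RNA per cell cannot be told apart. Markers of other cells differed between the groups, on arrays where many genes did. The test used below called 19.1% of all probe sets higher in RAS-OFF and 22.4% lower, 41.5% in either direction. Of 8 measured late neutrophil markers (10 listed), 5 were higher in RAS-OFF by the test used below, with a summed intensity of 111064 to 138997 in RAS-OFF arrays and 95207 to 110694 in RAS-ON arrays. Of 8 measured monocyte and macrophage markers (10 listed), 6 were lower, with sums of 10029 to 15206 in RAS-OFF and 22591 to 26544 in RAS-ON. Red pulp macrophage markers were higher for 8 and lower for 1 of 9, with sums of 17823 to 22457 in RAS-OFF and 10880 to 16079 in RAS-ON. Erythroid markers were higher for 8 of 8 measured (9 listed), with sums of 74036 to 92940 in RAS-OFF and 31123 to 38002 in RAS-ON. By the same test azurophil granule markers were lower for 6 of 6 and megakaryocyte markers higher for 7 of 7, with stroma and endothelium higher for 6 and lower for 1 of 8. Natural killer cell markers were higher for 4 of 5, dendritic cell markers for 4 of 5 and T cell markers for 2 of 5. B cell markers were higher for 1 and lower for 3 of 4, and mast cell and basophil markers higher for 1 and lower for 2 of 6. The T cell count and the mast cell and basophil count were near the whole-array share in either direction. Nothing is read from them. Cd3g, Cd79a, Ms4a2 and Fcer1a lay below the array median on every array. None of the measured genes in the first 4 lists lay below the array median on every array. Their part in the levels of the IL-1 genes was not tested.

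Il1a, which encodes IL-1alpha and lies beside Il1b on chromosome 2, was higher by less. It ranged from 6.95 to 7.33 in RAS-OFF and from 6.48 to 6.86 in RAS-ON, with no overlap between the groups. The means were 7.14 ± 0.13 in RAS-OFF (SD, n = 10) and 6.73 ± 0.17 in RAS-ON (SD, n = 5), a change of 0.41 ± 0.08 (SE). The 5 RAS-OFF times overlapped their neighbours in order of mean, and the slope was 0.05 ± 0.03 per 12 h. The gap was 0.49 against RAS-ON replicates 1 to 3 and 0.29 against replicates 4 and 5.

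Il18, the caspase-1 substrate that drives interferon-gamma production, was higher in RAS-OFF at all times. Its RAS-OFF arrays lay within 10.10 to 10.27 and its RAS-ON arrays within 9.17 to 9.68. The means were 10.18 ± 0.06 in RAS-OFF (SD, n = 10) and 9.44 ± 0.24 in RAS-ON (SD, n = 5), which is 1.67-fold or 0.74 ± 0.08 on the log2 scale (SE). The slope was -0.01 ± 0.03 per 12 h, so the level was flat from 48 to 96 h within the spread of the arrays.

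Il1rn, the receptor antagonist that occupies IL1R1 without signalling, was read by 3 probe sets, all highest at 48 or 60 h and lowest at 96 h among the RAS-OFF times. By the brightest it read 9.74 and 9.28 at 48 h, 9.23 and 9.35 at 60 h, 9.08 and 9.15 at 72 h, 8.65 and 8.64 at 84 h, and 8.09 and 8.35 at 96 h, against 7.89, 8.19, 7.91, 7.64 and 7.57 in RAS-ON. Of the 10 RAS-OFF arrays, 9 lay above all RAS-ON arrays, and the one that did not was at 96 h. Its change over RAS-ON at these times, in order, was 1.67, 1.45, 1.27, 0.81 and 0.38, and the slope was -0.32 ± 0.04 per 12 h (SE). From 72 h on, each time lay below the one before it without overlap, while 60 h overlapped 48 h. The middle probe set changed by 0.75, 0.77, 0.61, 0.26 and -0.08 at the same times, with a slope of -0.22 ± 0.04. Its 96 h mean rests on replicates that read 7.84 and 8.49. The lower value is that of replicate 1, whose Gapdh difference was 1.22, and without it the slope was -0.15. The dimmest changed by 0.68, 0.69, 0.48, 0.33 and 0.27, with a slope of -0.12 ± 0.02, and all 10 RAS-OFF arrays stayed above the RAS-ON arrays.

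The antagonist and its ligand were thus both higher in RAS-OFF, with different time courses. At 96 h the change of Il1b over RAS-ON was 1.11 while the 3 Il1rn probe sets gave 0.38, -0.08 and 0.27. At 48 h Il1b gave 1.61 and the Il1rn probe sets 1.67, 0.75 and 0.68. These values share the RAS-ON arrays.

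**Figure D2:**
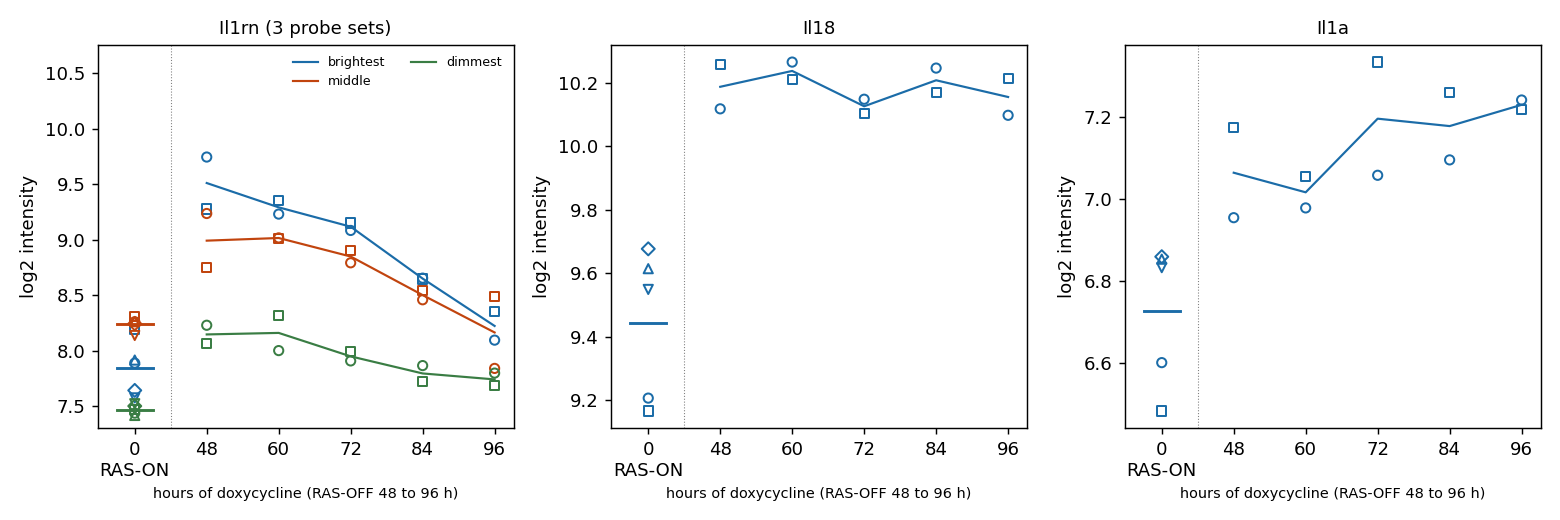
Log2 intensity of Il1rn (3 probe sets, by colour), Il18 and Il1a against hours of doxycycline, with RAS-ON arrays at 0 h (bar: mean) and RAS-OFF arrays from 48 to 96 h (line: means), symbols for replicate numbers and axes that do not start at 0. The 3 Il1rn probe sets go down over the RAS-OFF times, Il18 is flat between 10.10 and 10.27, and all Il1a RAS-OFF arrays lie above its RAS-ON arrays.

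Il1r1, the signalling receptor, showed no difference between the groups beyond their spread, but the spread was wide in RAS-ON. By the brighter of its 2 probe sets the RAS-OFF arrays lay within 8.75 to 8.91, and the RAS-ON arrays read 8.81, 8.59, 8.28, 9.12 and 9.22. The means were 8.84 ± 0.05 in RAS-OFF (SD, n = 10) and 8.80 ± 0.39 in RAS-ON (SD, n = 5), a change of 0.03 ± 0.12 (SE). The sign depended on the RAS-ON set: the change was 0.28 against replicates 1 to 3 and -0.33 against replicates 4 and 5. The slope within RAS-OFF was 0.00 ± 0.05 per 12 h. The other probe set read 3.60 ± 0.08 in RAS-OFF (SD, n = 10) and 3.62 ± 0.11 in RAS-ON (SD, n = 5), where 0.979% and 1.07% of probe sets were dimmer.

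Il1r2, the decoy receptor that binds IL-1beta without signalling, was lower late in RAS-OFF. It read 9.28 and 9.23 at 48 h, 9.12 and 9.30 at 60 h, 8.78 and 8.98 at 72 h, 8.45 and 8.31 at 84 h, and 8.30 and 8.23 at 96 h, against 9.48, 9.13, 8.99, 9.91 and 10.25 in RAS-ON. The 48 h and 60 h arrays lay within the RAS-ON range, and 6 of the 10 RAS-OFF arrays, those from 72 h on, lay below it. The means were 8.80 ± 0.44 in RAS-OFF (SD, n = 10) and 9.55 ± 0.53 in RAS-ON (SD, n = 5), a change of -0.75 ± 0.17 (SE). The change ran from -0.30 at 48 h through -0.34, -0.67 and -1.17 to -1.29 at 96 h, with a slope of -0.28 ± 0.07 per 12 h. Against RAS-ON replicates 1 to 3 the mean change was -0.40 and against replicates 4 and 5 it was -1.28, whose own means were 9.20 and 10.08. The estimate of the slope uses no RAS-ON array and does not depend on that choice. Its SE does draw on the RAS-ON arrays, since all groups share one estimate of the spread.

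Il1rap, the accessory chain shared by the IL-1, interleukin 33 and interleukin 36 receptors, was read by 5 probe sets that did not move alike. The brightest averaged 7.86 ± 0.19 in RAS-OFF (SD, n = 10) and 8.15 ± 0.18 in RAS-ON (SD, n = 5), a change of -0.29 ± 0.07 (SE), or -0.17 against RAS-ON replicates 1 to 3 and -0.48 against replicates 4 and 5. Its change ran from -0.12 at 48 h through -0.13, -0.25 and -0.42 to -0.54 at 96 h, with a slope of -0.11 ± 0.03 per 12 h, and 8 of the 10 RAS-OFF arrays lay below all RAS-ON arrays. The fourth brightest moved the same way, by -0.28 ± 0.08 with a slope of -0.17 ± 0.03. The dimmest changed by -0.18 ± 0.07 with an upward slope of 0.08 ± 0.03, the third brightest by 0.16 ± 0.07 with a slope of 0.07 ± 0.03, and the second brightest by -0.03 ± 0.05 with a slope of -0.03 ± 0.02. Those 3 had 3 RAS-OFF arrays each outside the RAS-ON range. Against RAS-ON replicates 1 to 3 these 3, in the same order, changed by -0.11, 0.24 and 0.01, and against replicates 4 and 5 by -0.27, 0.04 and -0.10. The gene encodes membrane-bound and soluble proteins from different transcripts, and which of them each probe set reads is not given in the annotation used here.

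Casp1, which encodes the protease that matures IL-1beta and interleukin 18, was lower in every RAS-OFF array and went down at every step. It read 9.34 and 9.37 at 48 h, 9.25 and 9.07 at 60 h, 9.05 and 8.98 at 72 h, 8.88 and 8.82 at 84 h, and 8.60 and 8.65 at 96 h, against 9.80, 9.90, 9.85, 9.60 and 9.66 in RAS-ON. All 5 RAS-OFF times were separated from their neighbours without overlap, by -0.19, -0.14, -0.17 and -0.22 from one time to the next. The medians were 9.02 in RAS-OFF (SD of 0.27, n = 10) and 9.80 in RAS-ON (SD of 0.13, n = 5), and the means were 1.70-fold lower in RAS-OFF, a change of -0.76 ± 0.06 (SE). The slope was -0.18 ± 0.02 per 12 h. The change was -0.85 against RAS-ON replicates 1 to 3 and -0.63 against replicates 4 and 5. In the same arrays the monocyte and macrophage markers and the azurophil granule markers were lower, as given above, and their part in the Casp1 level was not tested.

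**Figure D3:**
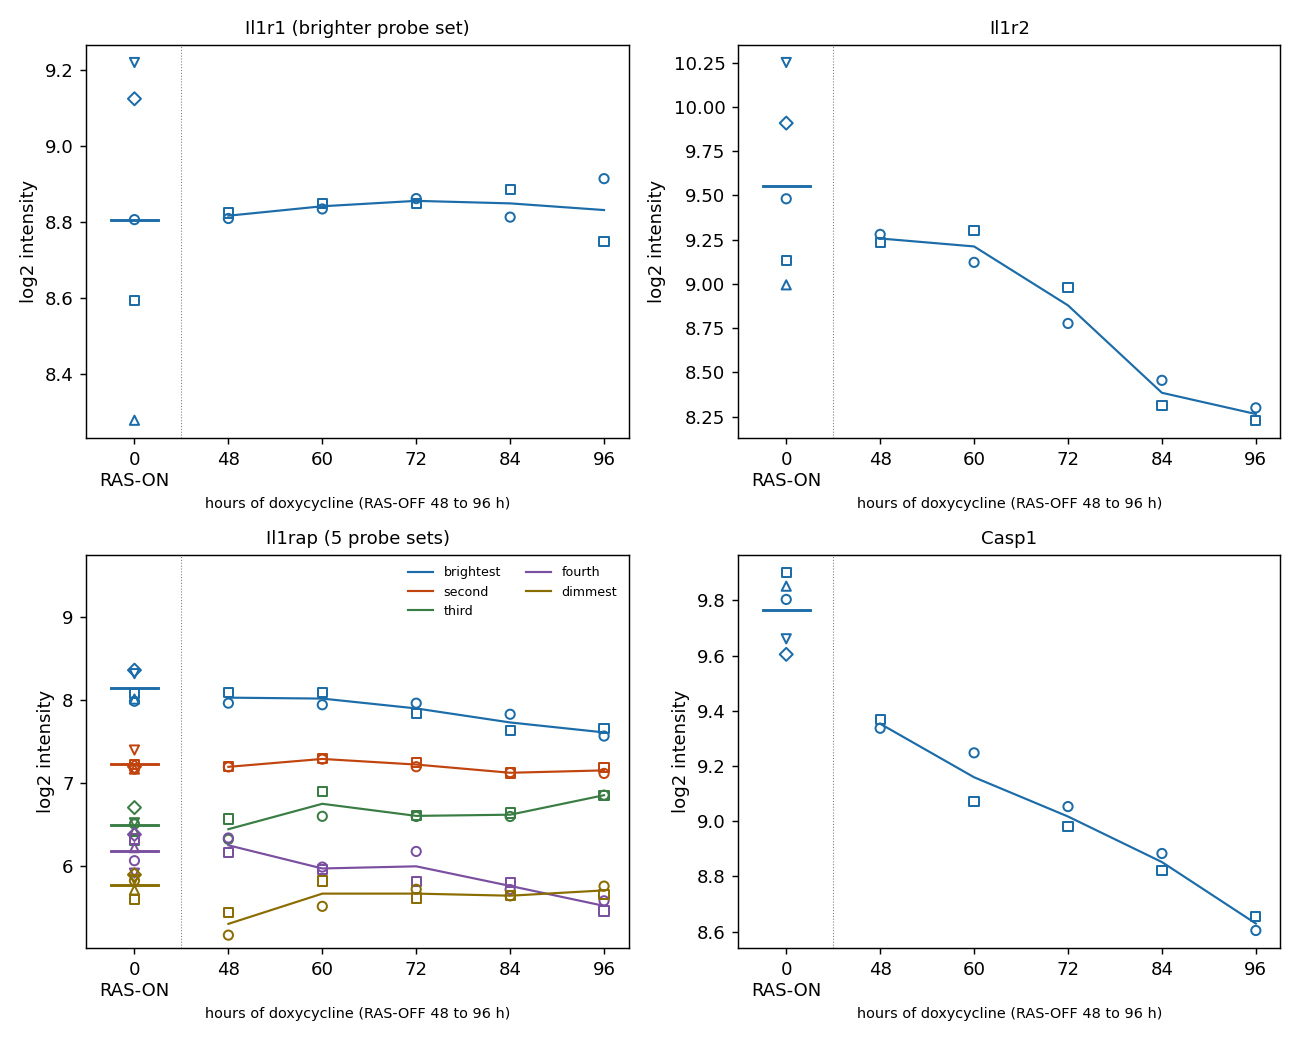
Log2 intensity of the receptor genes Il1r1 (brighter probe set), Il1r2 and Il1rap and of Casp1 against hours of doxycycline, with RAS-ON arrays at 0 h (bar: mean) and RAS-OFF arrays from 48 to 96 h (line: means), symbols for replicate numbers and axes that do not start at 0. Il1r2 and Casp1 go down over the RAS-OFF times, Il1r1 stays between 8.75 and 8.91, and the RAS-ON arrays of Il1r1 and Il1r2 are widely spread.

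Over the 16 probe sets, 5 were higher in RAS-OFF without overlap with RAS-ON (Il1b, Il1bos, Il1a, Il18 and 1 of Il1rn), 1 was lower (Casp1) and 10 overlapped. Over the whole array 7.33% of probe sets were higher without overlap and 8.68% lower. The members were chosen on this contrast, so nothing is read from their count.

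Within the 10 RAS-OFF arrays, where all values come from the same libraries and share the time course, the falling genes ran together. Pearson's r, taken over the brightest probe set of each gene and given as a description, was 0.92 between Casp1 and Il1rn, 0.90 between Casp1 and Il1r2, and 0.93 between Il1rn and Il1r2. It was 0.80 between Il1b and Casp1, 0.78 between Il1b and Il1rn, and 0.18 between Il1b and Il1bos. Il1bos had an r of -0.26 to 0.18 with the other genes.

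The genes most like each of the pair over all 15 arrays were ranked by Pearson's r among 16304 named genes, each by its brightest probe set. For Il1b they were Gbp8 (r = 0.969), Scn2b (0.966), Ubxn7 (0.966), Traf4 (0.965) and Cpox (0.965). Within the 10 RAS-OFF arrays the same genes had an r of 0.46, 0.69, 0.73, 0.59 and 0.37 with Il1b. For Il1bos they were Prokr1 (0.988), Rsad2 (0.986), Fam210b (0.986), Asns (0.985) and Hbb-y (0.985), with an r of -0.11, 0.13, 0.28, 0.35 and 0.55 within RAS-OFF. All 10 of these genes had a lower r within RAS-OFF than over all arrays. They were picked for their r over all arrays, which favours that outcome, and nothing is read from it. Of the nearest 3 genes on either side of Il1b beyond Il1bos (Il1a, Gm25703, Gm18333, Spcs2-ps, F830045P16Rik and Gm14040), Il1a alone had a probe set under its symbol.

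The rest of the pathway was tested across all 45037 probe sets with limma, where called means an adjusted p below 0.05. Of 73 listed genes outside the members, 67 had a probe set, 141 probe sets in all. In RAS-OFF against RAS-ON 23 of the 141 were higher, 58 lower and 60 not called, or 16.3% higher and 41.1% lower, while over the whole array 19.1% of probe sets were called higher and 22.4% lower, 41.5% in either direction. The median change was -0.08 over the 141 and -0.02 over all probe sets. The lists were written with earlier results of these arrays known, and their counts describe them.

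Among the other IL-1 family ligands and binding proteins (7 genes listed, all measured, with 8 probe sets), 2 genes rose, 1 fell and 4 were not called. Il1f9, now called Il36g, the epithelial and myeloid cytokine interleukin 36 gamma, averaged 9.16 ± 0.43 in RAS-OFF (SD, n = 10) and 7.93 ± 0.20 in RAS-ON (SD, n = 5), a change of 1.23 ± 0.09 (limma adjusted p = 2.37e-07). Its arrays ranged from 8.22 to 9.75 in RAS-OFF and from 7.77 to 8.20 in RAS-ON, and from 48 to 96 h its change was 1.51, 1.67, 1.28, 1.17 and 0.54. The slope of -0.24 ± 0.04 per 12 h was called (limma adjusted p = 0.00182). Il18bp, which neutralises interleukin 18, rose by 0.40 ± 0.06, with 9 of the 10 RAS-OFF arrays above all RAS-ON arrays (limma adjusted p = 0.000146). Il1f10, the gene of interleukin 38, fell by 0.24 ± 0.06 (limma adjusted p = 0.00731). Set against RAS-ON replicates 4 and 5 only, this gene was not called (adjusted p = 0.129). Il33, the ligand of the receptor that was not measured, read -0.17 ± 0.23 and was not called (limma adjusted p = 0.591). Its RAS-ON arrays spread from 7.21 to 8.87, and its change turned to 0.49 (adjusted p = 0.031) when RAS-ON was replicates 4 and 5 only. Il1f5, Il1f6 and Il1f8 read 0.04, 0.06 and -0.12 and were not called, though Il1f8 was without replicate 2 of 60 h or of 72 h (adjusted p = 0.0468 and 0.0485).

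Among the 6 other receptor genes (10 probe sets), 3 probe sets rose and 3 fell, 30.0% each way. Over the whole array 19.1% were called higher and 22.4% lower, and nothing is read from the split. Il18r1, the chain that binds interleukin 18, averaged 9.65 ± 0.12 in RAS-OFF (SD, n = 10) and 8.68 ± 0.32 in RAS-ON (SD, n = 5), a change of 0.97 ± 0.10 that separated the groups (limma adjusted p = 6.16e-06). Sigirr, which restrains IL-1 and Toll-like receptor signalling, averaged 8.17 ± 0.14 in RAS-OFF (SD, n = 10) and 8.73 ± 0.08 in RAS-ON (SD, n = 5), a change of -0.55 ± 0.06 with no overlap (limma adjusted p = 3.48e-06). Il1rl2, the interleukin 36 receptor, fell in both of its probe sets, with changes of -0.53 ± 0.12 and -0.22 ± 0.07 (limma adjusted p = 0.00335 and 0.0265). Il18rap, the accessory chain of Il18r1, rose by 0.39 ± 0.14 in 1 probe set (limma adjusted p = 0.0361) and read -0.00 ± 0.15 in the other. That call was lost in 16 other settings, among them leaving out RAS-ON replicate 1, 2 or 3 (adjusted p = 0.114, 0.0963 and 0.0887), and against RAS-ON replicates 4 and 5 alone the change was -0.023 (adjusted p = 0.908). Il1rapl1 rose by 0.23 ± 0.08 (limma adjusted p = 0.0442), a call lost in 19 settings, among them leaving out RAS-ON replicate 2 (adjusted p = 0.109), and Il1rapl2 was not called. Where single arrays were left out, 1 to 3 of the receptor probe sets were called higher.

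Most inflammasome and processing genes fell. Of 20 probe sets (13 of 16 genes measured), 14 were lower and 6 not called by limma, and by the brightest probe set 9 genes fell and 4 were not called. The share called lower was 70.0%, against 22.4% of the whole array. From 48 to 96 h the list median was -0.12, -0.16, -0.26, -0.36 and -0.43, and that of all probe sets -0.05, -0.00, -0.03, -0.02 and -0.01. In the same arrays 6 of 8 monocyte and macrophage markers were lower, with sums of 10029 to 15206 in RAS-OFF and 22591 to 26544 in RAS-ON. Azurophil granule markers were lower for 6 of 6, with sums of 12366 to 18482 in RAS-OFF and 44192 to 60077 in RAS-ON. The part of either list in these genes was not tested. Pycard, the adaptor ASC that joins sensors to caspase-1, read 10.27 to 10.93 in RAS-OFF arrays and 12.21 to 12.59 in RAS-ON arrays. Its change was -1.78 ± 0.07 by the brightest probe set (limma adjusted p = 8.67e-10) and -0.71 and -0.31 by the other two. Casp8, a death protease that can also cleave IL-1beta, fell by 0.86 ± 0.06, and Mefv, the sensor pyrin, changed by -0.58 ± 0.09 (limma adjusted p = 8.88e-08 and 0.000218). The sensor Nlrp3, picked for mention after its value was seen, averaged 9.52 ± 0.22 in RAS-OFF (SD, n = 10) and 10.10 ± 0.23 in RAS-ON (SD, n = 5), a change of -0.58 ± 0.10 with all 10 RAS-OFF arrays below RAS-ON (limma adjusted p = 0.000338). Over the RAS-OFF times 6 of the 20 probe sets had a called slope, all downward, against 6.65% called downward over the whole array. Called slopes of the pathway lists depended on single arrays, as given below. Among the 6 were 1 of P2rx7, the ATP-gated channel that triggers Nlrp3, at -0.21 ± 0.04 per 12 h, and 1 of Txnip at -0.27 ± 0.06 (limma adjusted p = 0.0056 and 0.0144). Without replicate 1 of 48 h the adjusted p was 0.0518 for P2rx7 and 0.145 for Txnip, and without replicate 1 of 96 h it was 0.109 for Txnip, at a slope of -0.17. The Pycard slope was -0.15 ± 0.03 (limma adjusted p = 0.00537). Pycard and Nlrp3, like Casp1, were lower in the same arrays in which the RNA of Il1b and Il18 was higher.

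Of 50 receptor-proximal signalling probe sets (17 of 19 genes measured), 11 were higher, 19 lower and 20 not called. The share called lower was 38.0%, against 22.4% of the whole array, and the count called higher was close to the 19.1% of the whole array. Tab3, which helps activate the kinase TAK1, averaged 10.42 ± 0.27 in RAS-OFF (SD, n = 10) and 9.17 ± 0.34 in RAS-ON (SD, n = 5), a rise of 1.24 ± 0.11 (limma adjusted p = 1.19e-06). Ikbkg, the regulatory subunit NEMO of the IkB kinase, rose by 0.71 ± 0.07 in the probe set with the largest change (limma adjusted p = 3.26e-06) and was called higher in 5 of 6. Traf6, the ubiquitin ligase downstream of the IRAK kinases, fell by 0.78 ± 0.14 in the probe set with the largest change (limma adjusted p = 0.000644), where RAS-ON arrays spread from 7.02 to 8.08. It was called lower in 4 of 5, and the brightest changed by -0.39 ± 0.13. Irak3, an inhibitory member of the IRAK family, fell by 0.70 ± 0.10 in its dimmer probe set, with a slope of -0.26 ± 0.04 per 12 h (limma adjusted p = 0.00129 for the slope). The brightest Irak3 probe set changed by -0.45 ± 0.10. A dim probe set of Peli1 had a slope of -0.33 ± 0.08 (limma adjusted p = 0.0229), a call lost without replicate 1 or 2 of 48 h, replicate 1 of 60 h or replicate 2 of 96 h (adjusted p = 0.113, 0.0663, 0.0538 and 0.106), while the brightest Peli1 probe set was higher in RAS-OFF by 0.47 ± 0.07.

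Of 26 probe sets from 13 genes that IL-1 and NF-kB are known to induce, 6 rose, 8 fell and 12 were not called. These are 23.1% higher and 30.8% lower, against 19.1% and 22.4% of the whole array, and nothing is read from the split. Ccl2, the monocyte-attracting chemokine, read 6.02 to 6.54 in RAS-OFF arrays and 7.86 to 8.92 in RAS-ON arrays, a change of -2.18 ± 0.14 (limma adjusted p = 4.52e-08). Nfkbia, the IkB-alpha inhibitor that NF-kB induces as its own brake, fell by 0.91 ± 0.17 in the probe set with the largest change (limma adjusted p = 0.000601). In that probe set RAS-ON replicates 1, 4 and 5 read 11.57, 11.70 and 11.82 and replicates 2 and 3 read 10.74 and 10.77. Nfkbia was called lower in 4 of its 5 probe sets, and the brightest changed by -0.50 ± 0.11. Nfkbiz, which encodes IkB-zeta, rose by 0.85 ± 0.21 in the probe set with the largest change (limma adjusted p = 0.00506), not called against RAS-ON replicates 1 to 3 alone (adjusted p = 0.0613).

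Among regulators of Il1b transcription and RNA decay 7 genes fell by their brightest probe set and 4 were not called, with 13 probe sets lower, 1 higher and 13 not called of 27 (11 of 12 genes measured). The share called lower was 48.1%, against 22.4% of the whole array, in arrays whose monocyte and macrophage markers and azurophil granule markers were lower as given above. Cebpb, which binds C/EBP motifs such as the one capitalised in the Il1b window, fell by 1.82 ± 0.11 in the probe set with the largest change, with 8.22 to 9.76 in RAS-OFF arrays and 10.40 to 11.05 in RAS-ON arrays (limma adjusted p = 2.52e-08). The brightest Cebpb probe set changed by -1.51 ± 0.09. Spi1, the myeloid factor PU.1, averaged 10.45 ± 0.55 in RAS-OFF (SD, n = 10) and 11.56 ± 0.16 in RAS-ON (SD, n = 5), a change of -1.11 ± 0.13 (limma adjusted p = 1.28e-05). Zfp36, the protein TTP that speeds decay of AU-rich cytokine messages, fell by 0.86 ± 0.16 (limma adjusted p = 0.000638). The slope was -0.29 ± 0.04 per 12 h for the Cebpb probe set with the largest change and -0.32 ± 0.05 for Spi1 (limma adjusted p = 0.00168 and 0.0022). The probe set that rose belonged to Stat3, at 0.65 ± 0.12, whereas 2 others of Stat3 changed by -0.31 ± 0.07 and -0.29 ± 0.09, and its probe sets therefore disagree.

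**Figure D4:**
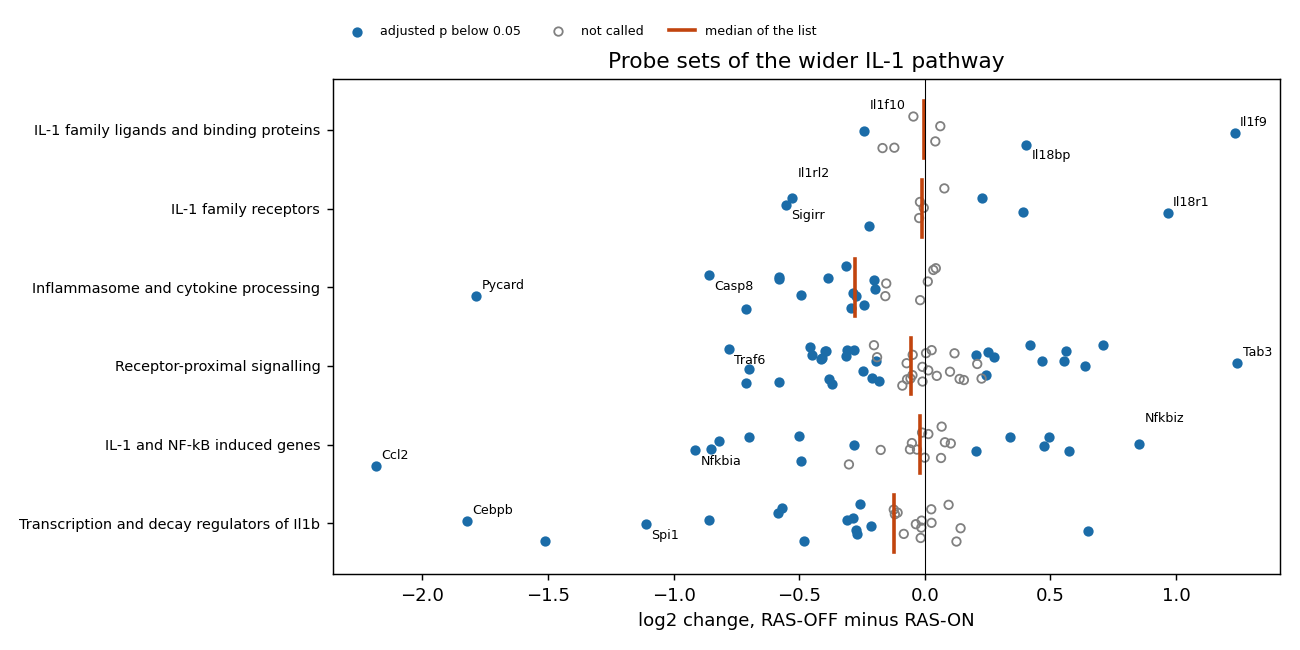
Change in RAS-OFF minus RAS-ON (log2, horizontal axis) of the 141 probe sets of 67 IL-1 pathway genes outside the members, by list, with filled points for limma adjusted p below 0.05, open points for the others, a bar for the list median and small vertical offsets only to separate points. In the inflammasome list 14 of 20 points are filled, all left of 0.

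By time, the pathway lists held more calls later. Against RAS-ON 30 of the 141 probe sets were called at 48 h (16 higher, 14 lower), 33 at 60 h (14 and 19), 47 at 72 h (13 and 34), 60 at 84 h (13 and 47) and 67 at 96 h (18 and 49). Over the whole array 18.6%, 17.7%, 24.2%, 29.3% and 32.2% of probe sets were called at those times. All 5 comparisons use the same RAS-ON arrays, and each time has 2 arrays. Without replicate 1 or 2 of 60 h the count at that time was 13 or 20, without replicate 1 or 2 of 72 h it was 26 or 28, and without replicate 2 of 96 h it was 43. The slope within RAS-OFF was called for 27 of the 141, 1 upward and 26 downward, where 3.64% of all probe sets were called upward and 6.65% downward, 10.3% in either direction. That count was 9 without replicate 1 of 48 h and 15 without replicate 1 of 96 h. The upward one was Tab3, at 0.16 ± 0.05 per 12 h (limma adjusted p = 0.045).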

How the data were processed

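Total RNA of cells from leukemic spleens was hybridised to 15 Affymetrix Mouse Genome 430 2.0 arrays, after extraction with a Qiagen kit and amplification with a MessageAmp III kit, per the labels' protocols. The deposited intensity of each probe set and array is on a linear scale and, per the submitters' processing notes, comes from RMA, whose version is not given in the sources used here. RMA forces similar distributions on all arrays, so a shift of most genes in 1 direction would not be seen. The number of arrays limits the precision. Every value column was used, and 0 were left out.

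From there, log2 of each deposited intensity was taken, with no filter. Of 45101 probe sets, 64 are controls, 34945 carry 1 gene symbol, 932 several and 9160 none, and 34741 match the RefSeq gene table (GRCm38.p6) by identifier. All 45037 that are not controls were fitted in R 4.3.3 by limma 3.58.1 with a mean for each group, default eBayes, two-sided tests and Benjamini-Hochberg adjustment. Contrasts set the average of the 5 RAS-OFF group means, or each time by itself, against RAS-ON, and the last took the least-squares trend over the RAS-OFF times in log2 units per 12 h. SDs over the 10 RAS-OFF arrays include differences between times. Groups came from the sample titles.

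The members and all gene and marker lists were chosen with earlier results of these data known. Text names every probe set of the members, every measured ligand and receptor of the lists, up to 3 genes of each other list with the largest called change and up to 2 with the steepest called slope, and the 5 genes most like Il1b and Il1bos without provisional symbols. The 67 pathway genes do not include Nlrc4, Nlrp1a, Nlrp1b, Irak4, Chuk and Nfkb1, which had no probe set under their symbol. The lists hold 77 names for 73 genes, since 4 names are newer symbols of genes also listed under the older one. All 10 members matched the RefSeq promoter table.

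Simulated data took the RAS-ON mean and residual SD of each of the 45037 probe sets and added independent normal noise. For RAS-OFF against RAS-ON, 83 of 100 changed by 0.5 and 98 of 100 changed by 1 log2 unit were recovered, with 6 other calls. For the slope, 90 of 100 at 0.25 per 12 h were recovered, with 4 other calls. Such noise holds no RAS-ON sets, no deviating array and no correlation between probe sets. Far fewer probe sets changed than the 41.5% called in the real arrays. The other calls therefore do not give the rate of false calls in the real arrays. Replicate numbers are shared between groups, but the deviations of same-numbered arrays correlated at -0.32 to 0.25, with 1 of 15 pairs above 0.1, so the numbers were not taken as pairs.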

Additional observations from a re-analysis of the deposited data

Results flagged for a closer look

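Among 45 sets of 5 RAS-ON values, 2 held an array that stood apart, where chance alone gives about 1 in 20 groups. In the second brightest probe set of Il1rap, RAS-ON replicate 5 read 7.40 and its nearest neighbour 7.22, a gap of 0.7545 of the group's range, above Dixon's critical value of 0.71. In Il1rapl2, RAS-ON replicate 3 read 5.87 and its nearest neighbour 6.02, a gap of 0.8529 of the range.

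Several changes differed between the RAS-OFF times by the test of the slope itself (limma, adjusted over 45037 probe sets). The slope per 12 h was -0.3304 for Peli1, -0.3232 for Spi1, -0.2863 for Cebpb, -0.2709 for Txnip, -0.2618 for Irak3, -0.2428 for Il1f9, -0.2116 for P2rx7 and -0.1504 for Pycard, and 0.1575 for Tab3. A called slope is not a test of 48 h against 96 h. The calls of Txnip, P2rx7 and Peli1 were lost when single arrays were left out, as given above. The steepest, that of Peli1, belongs to a dim probe set, and its other probe sets were flatter.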

How the results depend on the processing

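Of 1228 member values under alternative settings, 1184 moved by less than a set limit and 44 by more. The limit was the residual SD between replicates for a change and the SE of the slope for a slope. A reversal was counted only for changes of probe sets whose groups did not overlap, and none was found. Among the others, the brighter Il1r1 probe set turned from 0.03 to -0.33 against RAS-ON replicates 4 and 5. That move was larger than its residual SD of 0.26. Signs of some other small changes and slopes turned as well, among them the changes of the dimmer Il1r1 and the second brightest Il1rap probe sets. Of 948 results for named pathway genes, 874 kept their direction and call, 66 lost the call, 6 gained one and 2 changed direction. The Il1b change was 1.27 to 1.45 with any 1 array left out and 1.67 against RAS-ON replicates 4 and 5. That of Il1bos was 3.80 to 3.93 and, with 16 added to each intensity, 3.24. Against RAS-ON replicates 4 and 5, Il33 turned to 0.49 and Il18rap to -0.023, whereas against replicates 1 to 3 Il33 read -0.61 (adjusted p = 0.0105).

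When a change had to exceed 1 log2 unit, or a slope 0.25 per 12 h, 5 pathway probe sets were lower in RAS-OFF and 2 higher, the counts at 48, 60, 72, 84 and 96 h were 6, 6, 7, 11 and 11, and that of slopes was 6. With the brightest probe set of each gene, fewer were tested, and the counts were 32 lower, 11 higher, then 16, 21, 26, 37 and 35 by time and 15 slopes. Array weights gave 51 at 60 h. Leaving out 1 array gave 51 to 59 lower, 18 to 24 higher, 21 to 36 at 48 h, 13 to 44 at 60 h, 26 to 53 at 72 h, 40 to 67 at 84 h, 43 to 71 at 96 h and 9 to 31 slopes. The remaining array of a time was then assumed to vary like the other groups. Without the 48, 60 or 96 h arrays 10, 16 or 9 slopes were called. Without the first replicates of 48, 84 and 96 h the count was 42 at 96 h and 2 for slopes, and the slope calls of Cebpb (adjusted p = 0.0756) and Irak3 (adjusted p = 0.115) were lost, with fewer arrays in the fit. The cause of the other shifts was not tested.

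With the replicate block, 43 probe sets were lower and 23 higher, the counts by time were 40, 44, 54, 64 and 67, and 36 slopes were called. Replicates 3, 4 and 5 exist only in RAS-ON, so the block fits those arrays exactly. Its changes therefore set RAS-OFF against RAS-ON replicates 1 and 2 alone. The Il1b change was 1.23 and that of Il1bos 3.80. Under the block Il1rapl1 lost its call (adjusted p = 0.0677) and Il33 was called lower at -0.86.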
